A study of Mus musculus with 10 samples.

Results

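The genes described here encode 10 mouse serotonin receptors, *Htr1a*, *Htr1b*, *Htr1d*, *Htr1f*, *Htr2a*, *Htr2c*, *Htr3a*, *Htr4*, *Htr5a* and *Htr7*. They were taken by gene name from a count table of 22000 genes. All 10 were in the table, and all 10 were among the 14344 genes that passed a filter on low counts. The other 4 receptor genes of the mouse, *Htr2b*, *Htr3b*, *Htr5b* and *Htr6*, serve as comparison. RNA-seq was performed on the prefrontal cortex (PFC) of 5 mice homozygous for the *lu* allele of *Zbtb16* (KO), a nonsense point mutation carried by the B6.C3-Zbtb16lu/J line, and of 5 wild-type (WT) mice. All mice were 7 weeks old and labelled male, and each gave 1 library. The allele is constitutive, so that every cell of a KO mouse carries it. *Zbtb16* encodes PLZF, a transcription factor of the zinc finger family. The comparison asks whether transcript levels of serotonin receptors in the PFC differ between the genotypes.

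Serotonin reaches the PFC through axons of raphe neurons in the brainstem, while the receptors are made by cortical cells themselves. Receptors of the *Htr1* and *Htr5* groups couple to Gi/o proteins and lower cyclic AMP, those of the *Htr2* group couple to Gq and activate phospholipase C, and *Htr4*, *Htr6* and *Htr7* couple to Gs and raise cyclic AMP. *Htr3a* and *Htr3b* encode subunits of an ion channel that serotonin opens. In the neocortex, *Htr2a* and *Htr1a* are known from pyramidal neurons, and *Htr3a* marks a class of interneurons.

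The 10 libraries held 30220122 to 51231439 counts, and the RNA integrity number (RIN) was 8.1 to 9.8. Levels are given as CPM, the counts of a gene scaled to a common library total, and at these depths 3 counts, taken as the floor of detection, equal 0.0586 to 0.0993 CPM. *Zbtb16* itself had 48.4, 51.2, 41.7, 52.5 and 42.6 CPM in KO mice 1 to 5 and 83.7, 89.1, 73.6, 70.5 and 78.6 CPM in WT mice 1 to 5, so that the genotypes did not overlap. One library stood apart from its label: 4 Y-linked genes had 1 count in all in KO mouse 3 and 4376 to 8182 in the other mice. This mouse was kept under its genotype label, and values without it are given where the results rest on it. Markers of cortical layers, interneurons and glia were detected, with 357 to 403 CPM summed over layer 6 markers. Among the markers of serotonergic neurons, *Tph2* lay between 0.795 and 2.22 CPM and *Slc6a4* averaged 0.0102 CPM in KO and 0.00562 CPM in WT mice, so that the serotonin transporter transcript of raphe neurons was below the floor. In bulk tissue, fewer cells of a type and less RNA per cell cannot be told apart.

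The 10 receptor genes together took 0.0157% to 0.0197% of the counts of a library. To compare levels between genes, CPM was divided by exon length in kb (RPKM). On this scale *Htr2a* had the highest level, with a mean of 12.3 RPKM over the 10 mice, and lay above *Htr5a* in 10 of 10 mice without overlap. *Htr5a* (5.46 RPKM) and *Htr1a* (5.20 RPKM) came next, and their order held in only 5 of 10 mice. *Htr1a* exceeded *Htr7* (3.20 RPKM) in 10 of 10 mice, while *Htr7* exceeded *Htr1b* (2.95 RPKM) in only 5. *Htr3a* had 2.54 RPKM, *Htr2c* 1.88 RPKM and *Htr1f* 1.60 RPKM. *Htr6*, at 1.70 RPKM, lay between the last 2, and its place was in order with either neighbour in fewer than 10 mice. A gap without overlap separated *Htr1f* from the weakly expressed genes, *Htr5b* (0.450 RPKM), *Htr4* (0.241 RPKM) and *Htr1d* (0.153 RPKM). Among the tested genes for which an exon length was found, *Htr2a* stood at the 71.3rd percentile of level per length, *Htr5a* at the 49.6th, *Htr4* at the 6.02nd and *Htr1d* at the 3.43rd.

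**Figure D1:**
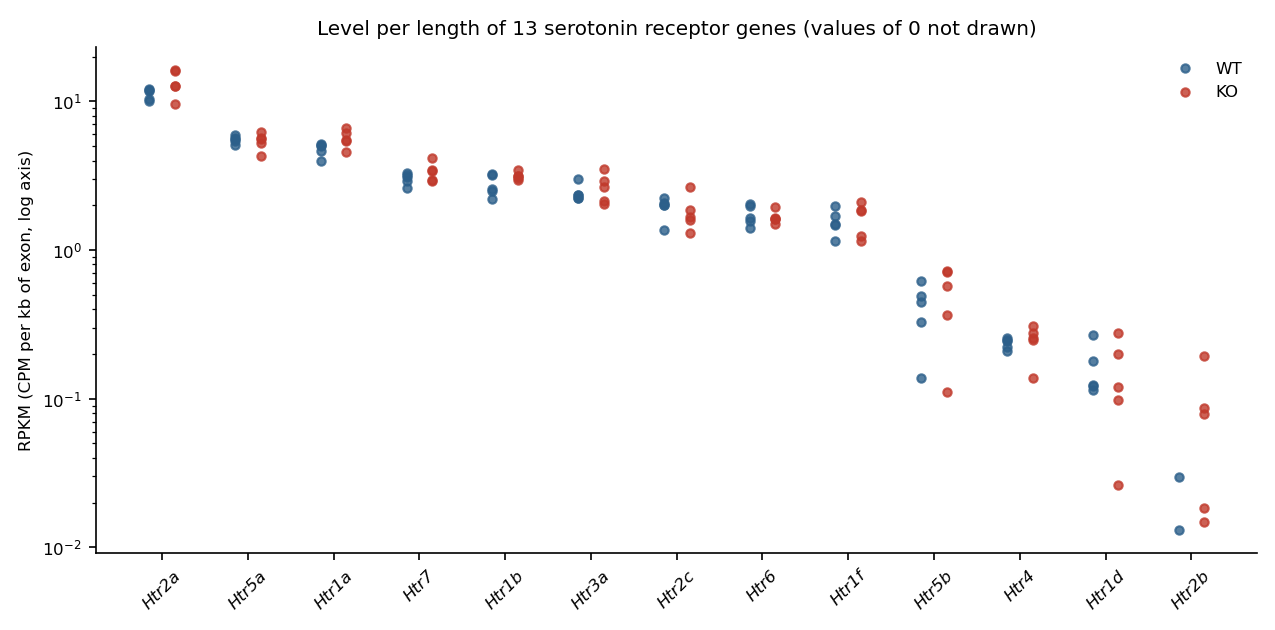
Level per length of 13 serotonin receptor genes in each mouse, as RPKM on a log axis, ordered by the mean over 10 mice, with WT mice in blue and KO mice in red; *Htr3b*, with 0 counts in every mouse, and mice with 0 counts of *Htr2b* are not drawn. *Htr2a* lies above all others, and a gap separates *Htr1f* from *Htr5b*, *Htr4*, *Htr1d* and *Htr2b*.

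Summed by coupling over all 14 receptor genes of the mouse, including *Htr2b*, *Htr3b*, *Htr5b* and *Htr6*, the classes took shares of the receptor RPKM that overlapped between the genotypes. Gi/o-coupled receptors made up 41.5% ± 1.16 (SD, n = 5) in KO and 42.4% ± 0.807 in WT mice. Gq-coupled receptors made up 38.4% ± 3.55 and 36.8% ± 1.60, and Gs-coupled receptors 13.4% ± 2.06 and 14.0% ± 1.78. The channel subunits made up 6.74% ± 1.70 in KO and 6.79% ± 0.731 in WT mice.

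None of the 10 genes differed between KO and WT mice at a false discovery rate (FDR) under 0.05, in edgeR's quasi-likelihood test with genotype and 3 surrogate variables, which are weights per mouse that stand for unrecorded differences between libraries. Over all tested genes, 0.844% passed this threshold. DESeq2 and limma likewise called 0 of the 10, though DESeq2 gave no adjusted p-value for *Htr1d*. At an unadjusted p under 0.05 in edgeR there were 2 of 10, *Htr2a* with a higher and *Htr2c* with a lower mean in KO mice, where 10.6% of all tested genes were at such a p. The unadjusted p of *Htr2a* was 0.11 in DESeq2 and 0.098 in limma, and that of *Htr2c* 0.0344 and 0.118. None of the 10 had CPM values that separated the genotypes, as 1.63% of tested genes did. The fitted log2 fold change (KO against WT) was above 0 for 7 of 10 genes, against 48.1% of all tested genes. Its median was 0.11 over the 10 and -0.004 over all tested genes. Without surrogate variables 7 of 10 were again above 0, but *Htr3a* and *Htr5a* exchanged signs.

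**Figure D2:**
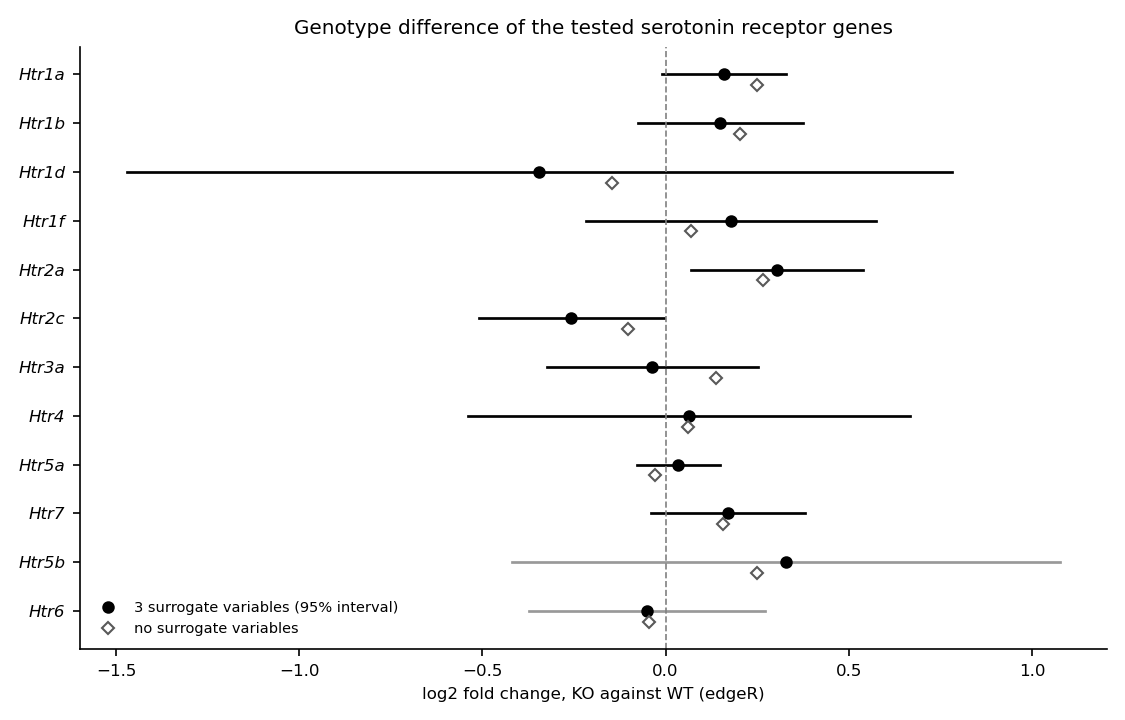
Fitted log2 fold changes of KO against WT for the 12 tested receptor genes, with 95% intervals from edgeR (black lines for the 10 genes described, grey for *Htr5b* and *Htr6*), and open diamonds for the fit without surrogate variables. The intervals of *Htr2a* and *Htr2c* do not reach 0 before adjustment for the number of genes, and that of *Htr1d* is the widest.

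*Htr1a* encodes the receptor that also acts as autoreceptor on raphe cell bodies and that in the cortex hyperpolarises pyramidal neurons (chr13:105443639-105448122, plus strand; GRCm38, as all positions here). It had 20.4, 24.8, 24.1, 27.4 and 29.7 CPM in KO mice 1 to 5 and 22.4, 17.8, 20.7, 22.8 and 23.1 CPM in WT mice 1 to 5. In 4 of 5 KO mice the value was above every WT mouse, and KO mouse 1 lay within the WT range. The fitted log2 fold change was 0.16 (SE 0.08, 95% interval -0.01 to 0.33), with an FDR of 0.500. An exact two-sided permutation test on log2(CPM + 1), without surrogate variables, gave p = 0.0873 (0.713 after adjustment over all tested genes), where 252 splits of the mice allow no p below 0.00794.

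*Htr1b* encodes a receptor of axon terminals that limits transmitter release (chr9:81628291-81633828, minus strand). It had 14.0, 14.9, 16.3, 14.8 and 14.4 CPM in KO mice 1 to 5 and 11.7, 10.4, 15.5, 12.3 and 15.0 CPM in WT mice 1 to 5. All 5 KO mice were above the WT median but only 1 was above every WT mouse. Its log2 fold change was 0.15 (SE 0.11, 95% interval -0.07 to 0.37; FDR 0.687). An antisense gene overlaps 18.0% of its exon bases, and since the sources used here do not name the strand setting of HTSeq, reads from that stretch cannot be assigned with certainty.

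*Htr1d* and *Htr1f* encode receptors close to *Htr1b* in sequence. *Htr1d* (chr4:136423524-136444398, plus strand) had few counts, 3, 10, 29, 13 and 33 in KO mice 1 to 5 and 11, 27, 14, 14 and 30 in WT mice 1 to 5. The lowest and the highest CPM were both in KO mice, 0.0836 in mouse 1 and 0.886 in mouse 3. The fitted difference was -0.34 in log2 fold change (SE 0.53, 95% interval -1.47 to 0.78; FDR 0.885). The coefficient of variation between mice was 67.1% in KO and 40.8% in WT mice, against 23.8% and 22.8% from counting alone. Without KO mouse 3 it was -1.19 (FDR 0.455), and without KO mouse 1 it was 0.16. *Htr1f* (chr16:64924729-65105854, minus strand) had 4.79, 3.19, 4.71, 5.40 and 2.99 CPM in KO and 2.94, 3.82, 4.35, 3.85 and 5.14 CPM in WT mice 1 to 5. Its genotype ranges overlapped along nearly their whole length, with a log2 fold change of 0.18 (SE 0.19; FDR 0.811).

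*Htr5a*, which encodes a receptor that lowers cyclic AMP (chr5:27842149-27855088, plus strand), had the narrowest interval of the 10. It had 33.2, 23.2, 28.1, 30.0 and 30.4 CPM in KO mice 1 to 5 and 32.0, 30.4, 29.8, 28.9 and 27.3 CPM in WT mice 1 to 5. The lowest value was that of KO mouse 2 and the highest that of KO mouse 1. The log2 fold change was 0.04 (SE 0.05, 95% interval -0.08 to 0.15; FDR 0.883), and -0.03 without surrogate variables.

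*Htr2a* encodes the main excitatory serotonin receptor of cortical pyramidal neurons and the target of classical hallucinogens (chr14:74640840-74709494, plus strand). It had 71.5, 53.6, 91.1, 89.8 and 70.6 CPM in KO mice 1 to 5 and 58.3, 56.0, 66.4, 66.0 and 68.1 CPM in WT mice 1 to 5. In 4 of 5 KO mice the value was above every WT mouse, while KO mouse 2 was the lowest of all 10. The mean was 75.3 ± 15.6 CPM (SD, n = 5) in KO and 63.0 ± 5.43 CPM in WT mice, and the coefficient of variation was 20.6% in KO and 8.63% in WT mice, against 1.89% and 2.08% from counting alone. This gave a log2 fold change of 0.30 (SE 0.11, 95% interval 0.07 to 0.54), with an unadjusted p of 0.0143 and an FDR of 0.305. The exact permutation test without surrogate variables gave p = 0.159. Single mice moved this result: without KO mouse 2 the log2 fold change was 0.30 with an FDR of 0.0106, the only such call among the 10 genes, and without KO mouse 4 it was 0.11 with an FDR of 0.863. Without KO mouse 3 it was 0.20 (FDR 0.619). KO mouse 2 also had the highest sum of oligodendrocyte markers, 8799 CPM against 5973 to 7914 CPM in the other mice, and of choroid plexus markers, 7.39 CPM against 3.28 to 5.11 CPM. It had the lowest sum of layer 6 markers, 357 CPM against 366 to 403 CPM in the other mice. Of the leading layer 6 markers *Tbr1* was lowest in this mouse, while *Foxp2* and *Tle4* were not. Within genotypes, Pearson's r with *Htr2a* over 10 mice was 0.75 for the layer 6 sum, -0.46 for oligodendrocyte and -0.39 for choroid plexus markers. The part of these marker lists in its *Htr2a* level was not tested.

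*Htr2c* encodes a Gq-coupled receptor that is strongest in choroid plexus and is also made by cortical and subcortical neurons (chrX:146962513-147197277, plus strand). It had 14.8, 24.6, 15.6, 12.1 and 17.4 CPM in KO mice 1 to 5 and 12.7, 20.9, 18.9, 18.8 and 19.3 CPM in WT mice 1 to 5. KO mouse 2, the lowest for *Htr2a*, was the highest for *Htr2c*, and 4 of 5 KO mice were below the WT median. The log2 fold change was -0.26 (SE 0.12, 95% interval -0.51 to -0.01), with an unadjusted p of 0.0457 and an FDR of 0.461. Without surrogate variables it was -0.10 with p = 0.523, and the exact permutation test gave p = 0.595. Without KO mouse 3, the mouse with few Y-linked counts, this X-linked gene had a log2 fold change of -0.24 (FDR 0.636). The choroid plexus marker *Ttr* was at 0.0586 to 1.11 CPM in all mice, and of the 7 choroid plexus markers tested, out of 10 listed, 0 passed. KO mouse 2, the highest for *Htr2c*, also had the highest *Ttr* and the highest choroid plexus sum (7.39 CPM, against 3.28 to 5.11 CPM). The other leading choroid plexus markers were not highest in this mouse. *Kl* had 1.99 CPM in KO mouse 2 and 2.67 CPM in WT mouse 3, and *Folr1* had 0.316 CPM in KO mouse 2 and 0.672 CPM in KO mouse 3. Within genotypes, Pearson's r between the choroid plexus sum and *Htr2c* was 0.57 over 10 mice. The part of choroid plexus in the *Htr2c* level was not tested. Summed markers of claustrum and endopiriform nucleus lay between 138 and 178 CPM and were highest in KO mouse 2 and lowest in KO mouse 4, the same mice that had the highest and the lowest *Htr2c*. The leading markers of this list did not move together between these mice. *Nr4a2* had 43.3 CPM in KO mouse 2 and 11.0 CPM in KO mouse 4, and *Gnb4* had 29.5 and 28.1 CPM. *Oprk1* went the other way, with 2.72 CPM in KO mouse 2 and 5.69 CPM in KO mouse 4. With the genotype means subtracted, Pearson's r between this sum and *Htr2c* was 0.86 over 10 mice, the highest of the combinations of the 10 receptors with 11 marker lists, and is given as a description. The part of this marker list in the *Htr2c* result was not tested.

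**Figure D3:**
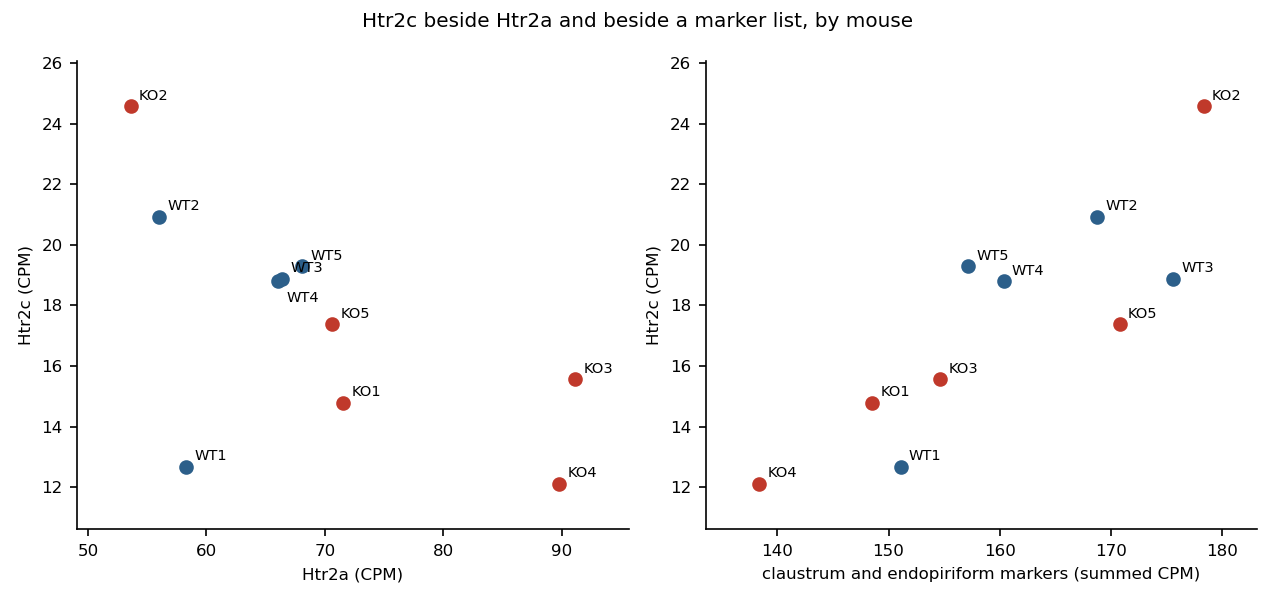
*Htr2c* in CPM against *Htr2a* in CPM (left) and against the summed CPM of claustrum and endopiriform markers (right), 1 point per mouse, with WT in blue and KO in red. KO mouse 2 has the lowest *Htr2a*, the highest *Htr2c* and the highest marker sum.

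The ratio of *Htr2a* to *Htr2c* CPM was 4.84, 2.18, 5.86, 7.41 and 4.07 in KO mice 1 to 5 and 4.60, 2.67, 3.52, 3.51 and 3.53 in WT mice 1 to 5. It averaged 4.87 ± 1.96 (SD, n = 5) and 3.57 ± 0.684, and the KO range enclosed the WT range.

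*Htr3a* lies 62.991 kb from *Zbtb16* on chromosome 9 (chr9:48899213-48911099, minus strand). It had 4.48, 6.10, 4.25, 5.51 and 7.34 CPM in KO mice 1 to 5 and 4.67, 4.65, 6.24, 4.91 and 4.85 CPM in WT mice 1 to 5. KO mice held both the lowest and the highest value. Its log2 fold change was -0.04 (SE 0.14, 95% interval -0.32 to 0.25; FDR 0.960) and 0.14 without surrogate variables, so that no direction can be given. Markers of interneurons from the caudal ganglionic eminence, the class that *Htr3a* marks, summed to 992 to 1059 CPM in KO and 1038 to 1130 CPM in WT mice. Of these, 0 of 12 passed the test (all tested genes: 0.844%), and 4 of 12 had an unadjusted p under 0.05 in edgeR (all tested genes: 10.6%). *Vip*, the neuropeptide of a subclass of these cells, did not overlap between the genotypes, at 39.8 ± 5.28 CPM in KO and 48.2 ± 2.32 CPM in WT mice (SD, n = 5; FDR 0.189). Of all tested genes, 1.63% did not overlap. The other leading markers of the list, *Lamp5* and *Ndnf*, overlapped, with log2 fold changes of -0.03 and 0.14. The log2 fold change was above 0 for 3 of the 12 markers, against 48.1% of all tested genes.

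*Htr7* encodes a Gs-coupled receptor of cortex, thalamus and hypothalamus (chr19:35958734-36057507, minus strand). It had 11.5, 14.2, 11.7, 10.1 and 9.86 CPM in KO mice 1 to 5 and 11.3, 10.9, 8.88, 10.5 and 9.94 CPM in WT mice 1 to 5. Although 3 of 5 KO mice were above every WT mouse, the others lay within the WT range, and the log2 fold change was 0.17 (SE 0.10, 95% interval -0.04 to 0.38; FDR 0.584). *Htr4*, which encodes a Gs-coupled receptor better known from striatum and hippocampus (chr18:62324204-62496577, plus strand), had 1.36, 1.52, 0.672, 1.26 and 1.21 CPM in KO mice 1 to 5 and 1.19, 1.23, 1.10, 1.25 and 1.03 CPM in WT mice 1 to 5. KO mouse 3 was the lowest of all 10 mice, and 3 KO mice were above every WT mouse. The gene had only 22 to 62 counts per mouse. Its coefficient of variation was 26.6% in KO and 7.83% in WT mice, against 14.9% and 15.3% from counting alone. Ranks between close values, as among the WT mice, are therefore not resolved. The log2 fold change was 0.06 (SE 0.28, 95% interval -0.54 to 0.67; FDR 0.968) and 0.25 without KO mouse 3 (FDR 0.866). Summed striatal markers lay between 217 and 338 CPM in KO mice and between 200 and 224 CPM in 4 WT mice, with 432 CPM in WT mouse 5. *Htr4* had 36 counts in that mouse and 36 to 58 in the other WT mice, so that its rank there is not resolved. The part of striatal tissue in the *Htr4* level was not tested.

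**Figure D4:**
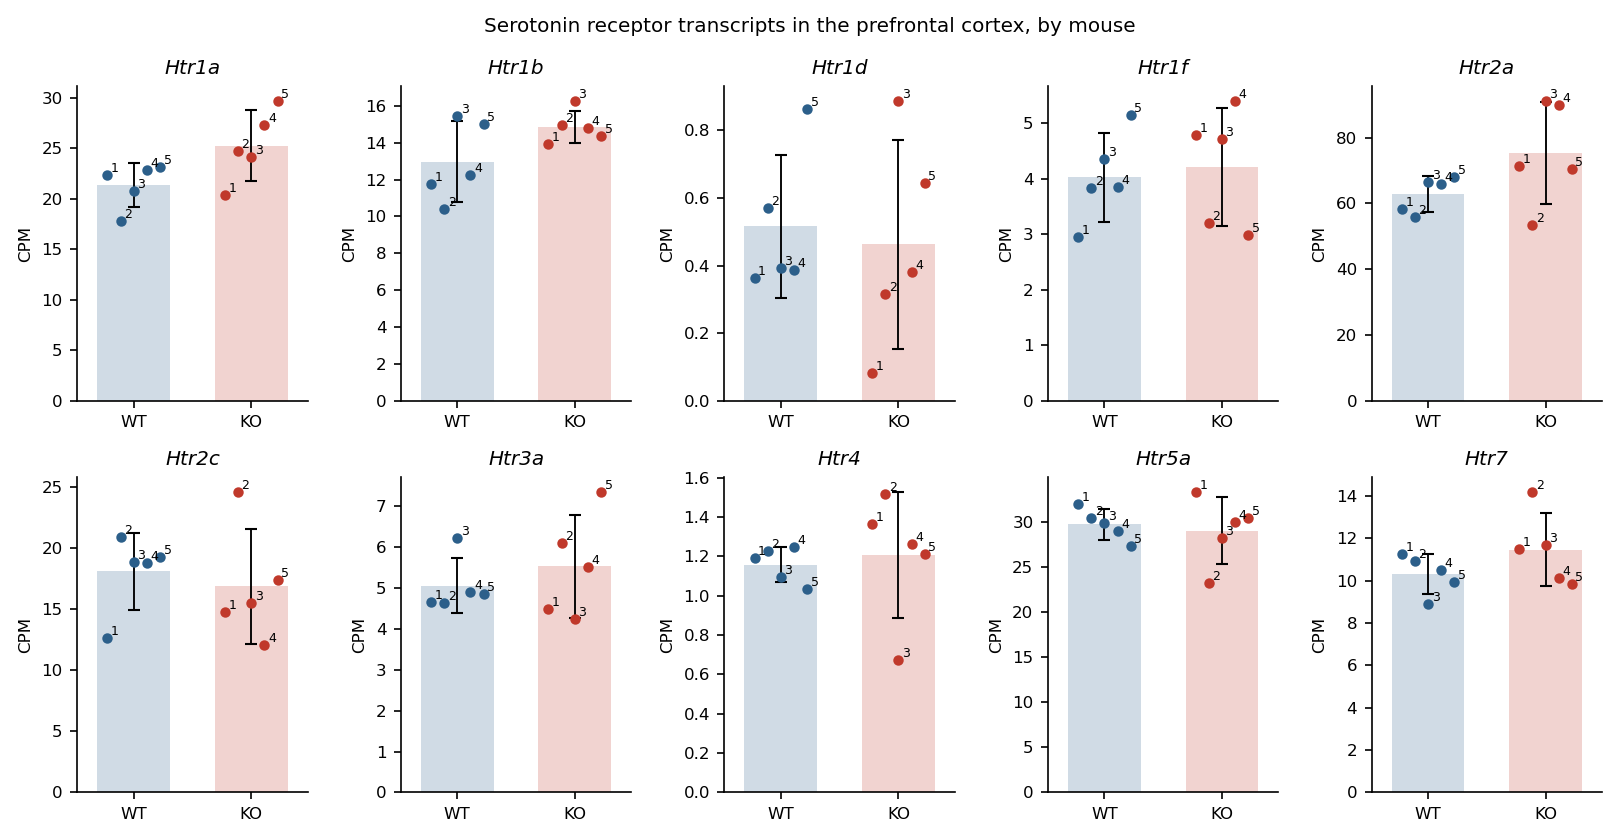
CPM of the 10 serotonin receptor genes in each mouse, with WT in blue, KO in red, points numbered by mouse, bars at the mean of 5 mice and error bars of 1 SD. The genotypes overlap for every gene, and for *Htr1a* and *Htr2a* 4 KO mice lie above all WT mice.

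Of the 4 other receptor genes, *Htr5b* and *Htr6* passed the filter and neither differed (FDR 0.815 and 0.950). *Htr6*, a Gs-coupled receptor gene, had 3.51 to 4.58 CPM in KO and 3.30 to 4.74 CPM in WT mice. *Htr2b*, a receptor gene of heart and gut that did not pass the filter, had 6, 1, 6, 14 and 2 counts in KO mice 1 to 5 and 0, 3, 0, 1 and 0 counts in WT mice 1 to 5. These 29 counts against 4 are mostly near the floor, and 11.8% of its exon bases overlap *Psmd1* on the opposite strand. *Htr3b* had 0 counts in all 10 mice, where the floor of 3 counts lay at 0.0586 to 0.0993 CPM for each library taken alone.

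The genes that make, clear or relay serotonin were described with a list of 66 genes, which includes the 4 receptors above, of which 60 were tested. At an FDR under 0.05, 2 were higher and 1 lower in KO mice (all tested genes: 0.600% higher and 0.244% lower), and the median log2 fold change was -0.003. Without KO mouse 3, 2 of the 60 passed.

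In the synthesis list, 1 of 6 tested genes passed, *Qdpr*, which encodes the reductase that regenerates the cofactor of tryptophan hydroxylase. *Qdpr* fell by 0.30 on the log2 scale (SE 0.05; FDR 0.00512), from 154.6 ± 8.51 CPM in WT to 123.1 ± 22.3 CPM in KO mice (SD, n = 5). KO mouse 2, at 155 CPM, lay within the WT range, and without surrogate variables the FDR was 0.334. It was above 0.05 in 6 of the 12 alternatives that kept all mice, and without KO mouse 1 (0.0696) or WT mouse 5 (0.0972). *Ddc*, the gene of the decarboxylase that completes serotonin synthesis, had a log2 fold change of 0.13 (FDR 0.837), and *Tph2*, that of the brain tryptophan hydroxylase, 0.12 (FDR 0.943).

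Among 6 tested genes of transport and breakdown, *Slc29a4*, which encodes a plasma membrane monoamine transporter of low affinity, rose. It had 7.88, 8.88, 8.34, 7.30 and 11.0 CPM in KO mice 1 to 5 and 5.63, 5.47, 5.06, 5.35 and 5.26 CPM in WT mice 1 to 5. The genotypes did not overlap, and the log2 fold change was 0.61 (SE 0.11; FDR 0.0126, and 0.0153 without surrogate variables). The FDR was 0.0765 with limma and 0.065 with a striatal marker score in place of the surrogate variables. It was also above 0.05 without KO mouse 1 (0.0658), KO mouse 3 (0.0522), WT mouse 3 (0.111), WT mouse 4 (0.0569) or WT mouse 5 (0.0569), and the log2 fold change with 1 mouse left out was 0.53 to 0.71. *Maoa*, which encodes the monoamine oxidase that degrades serotonin, had a log2 fold change of -0.20 (SE 0.06; FDR 0.147). *Slc6a4* and *Slc18a2*, the genes of the serotonin transporter and the vesicular monoamine transporter, did not pass the filter.

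Below the receptors, 0 of 11 Gi/o genes, 1 of 10 Gq genes, 0 of 12 Gs genes and 0 of 13 receptor partners passed. The Gq gene was *Plcb4*, which encodes a phospholipase C of this route, with 119.2 ± 12.5 CPM in KO and 107.0 ± 6.53 CPM in WT mice (SD, n = 5). Its log2 fold change was 0.26 (SE 0.04; FDR 0.00508), but the genotypes overlapped and without surrogate variables the FDR was 0.603. It passed in 5 of the 12 alternatives that kept all mice and with each mouse left out in turn. *S100a10*, whose product p11 binds receptors of the *Htr1* group at the membrane, had 20.9 ± 2.11 CPM in KO and 17.5 ± 1.23 CPM in WT mice, and its log2 fold change was 0.29 (FDR 0.0668). *Rgs4*, a brake on Gi/o and Gq signalling, had a log2 fold change of 0.12 (FDR 0.200), and *Gnal*, a Gs-type alpha subunit, 0.13 (FDR 0.241).

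**Figure D5:**
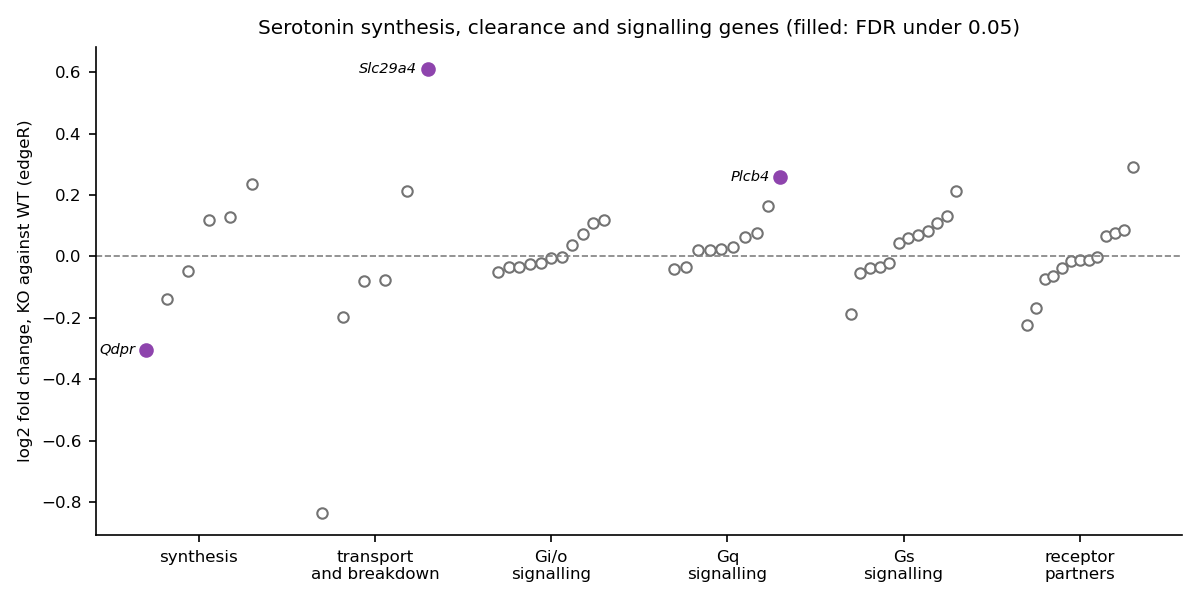
Fitted log2 fold changes of KO against WT for the tested genes of serotonin synthesis, transport and breakdown, of Gi/o, Gq and Gs signalling and of receptor partners, sorted within each list; filled points passed an FDR under 0.05. *Qdpr*, *Slc29a4* and *Plcb4* passed, and most others lie between -0.2 and 0.2.

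Variation among mice within a genotype was compared by Pearson's r of log2(CPM + 1) after subtraction of the genotype means, over 10 mice that share library depth and RNA quality as sources of variation. Of the 45 pairs of receptor genes, *Htr1f* and *Htr2a* had the highest r (0.71), and *Htr1d* and *Htr4* the lowest (-0.74), followed by *Htr2c* and *Htr5a* (-0.73). *Htr1d* and *Htr4* had few counts, 3 to 33 and 22 to 62 per mouse. KO mouse 3 had both the highest *Htr1d* (0.886 CPM) and the lowest *Htr4* (0.672 CPM). *Htr2a* and *Htr2c* had an r of -0.59. Against all other tested genes, the closest to *Htr3a* was *Snrpd2* (r = 0.99), the closest to *Htr7* was *Fermt2* (0.99) and the closest to *Htr1a* was *Cdk6* (0.96). For *Htr2c* it was *Vwc2l* (0.95), for *Htr1b* *Rap1gap* (0.94) and for *Htr5a* *Herc3* (0.94). For *Htr2a*, *Plxna2* (0.94) and *Bok* (0.94) were among the closest 3. The values of the other 6 genes are the highest of 14343 for each receptor, those of *Htr2a* are the next after a gene listed by a clone name, and all were picked for their rank. *Htr4* had *Rps15* (0.93) as the closest and the Y-linked *Ddx3y* (0.93) among the closest 3. Without KO mice 2 and 3, r was 0.63 for *Rps15* and 0.57 for *Ddx3y*.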

How the data were processed

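Total RNA of the PFC was sequenced as stranded mRNA libraries, 1 per mouse. The authors deposited counts of uniquely mapped reads on the exons of Gencode M21 protein-coding genes (mm10), without normalization; the submitters' processing notes name STAR 2.7.1a and HTSeq 0.9.1. HTSeq's strand setting is not given in the sources used here. Groups come from the labels.

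After edgeR's low-count filter and TMM scaling, counts of the 14344 genes kept were fitted by the quasi-likelihood method of edgeR (4.0.16, R 4.3.3), with p-values adjusted after Benjamini-Hochberg over these genes (threshold 0.05). Genotype and 3 surrogate variables (sva 3.50.0; log2(CPM + 1), seed 1) were the terms. DESeq2 (1.42.0), limma (3.58.1), other numbers of surrogate variables, RIN, a replicate block, other scalings, no filter and leaving out each mouse were alternatives. A fit with surrogate variables from TMM-scaled CPM and a fit with a striatal marker score were chosen after seeing the data. Exact permutation tests used 5 against 5 mice. P-values of the edgeR fits test the genotype term against the spread between these mice that the other terms leave. The intervals come from the same fits, so they reflect spread between mice as well as counting error. Floors are set from counts alone and hold no spread between mice. RPKM used exon lengths of Gencode M21. The fits were tested on simulated counts. Tables and figures were made with Python 3.11.15, pandas 2.3.3 and matplotlib 3.10.9.

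The genes named are the receptors, in each pathway list those past the threshold or with the smallest p up to 3, the leading markers, and the 3 genes most like each receptor. The receptors and lists were chosen with earlier results of these data known. Replicate numbers join different mice. No protein sequence was used here.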

Additional observations from a re-analysis of the deposited data

Results flagged for a closer look

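In 3 of 58 sets of 5 mice of a genotype, 1 mouse stood apart from the other 4 by Dixon's criterion, which chance alone meets in about 1 of 20 sets. *Htr2c* was at 12.67 CPM in WT mouse 1, against 18.8 to 20.93 CPM in the other WT mice. *Htr3a* was at 6.237 CPM in WT mouse 3, against 4.647 to 4.908 CPM. Striatal markers summed to 431.9 CPM in WT mouse 5, against 199.5 to 223.8 CPM in the other WT mice.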

How the results depend on the processing

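In the 12 alternatives that kept all mice, 0 of the 10 receptor genes were called. With 1 mouse left out it was 0 to 1, the 1 being *Htr2a* without KO mouse 2. The 3 called pathway genes became 1 with no surrogate variables, 1 with 1 surrogate variable, 1 with the replicate block, 5 with DESeq2, 0 with limma and 0 with the striatal marker score, and 1 to 4 when a mouse was left out, the 1 without KO mouse 1. Of all tested genes 121 were called. With no surrogate variables 30 were called, with 1 surrogate variable 34, with 2 surrogate variables 57, with RIN 38, with the replicate block 24, with DESeq2 233, with limma 8 and with the striatal marker score 9. Leaving out a mouse gave 39 (WT mouse 3) to 248 (KO mouse 2), with 59, 54 and 65 without KO mouse 1, KO mouse 3 and WT mouse 4. The causes were not tested.

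The log2 fold change of *Htr3a* turned from -0.04 to 0.14 with no surrogate variables, 0.015 with 1, 0.018 with 2, 0.14 with RIN, 0.12 with the replicate block and 0.074 with the striatal marker score, and ran from -0.098 to 0.076 when a mouse was left out. That of *Htr5a* turned from 0.04 to -0.0278 with no surrogate variables, 1 surrogate variable or RIN, to -0.0264 with 2 surrogate variables and to -0.0368 with the replicate block, and ran from -0.048 to 0.11. Leaving out a mouse also turned *Htr1d* (-1.19 to 0.16), *Htr1f* (-0.015 to 0.37) and *Htr4* (-0.10 to 0.25); none of these values passed the threshold. *Htr1a*, *Htr1b*, *Htr2a*, *Htr2c* and *Htr7* kept their signs in all alternatives run, and *Htr2a* ran from 0.11 to 0.37 when a mouse was left out. Single mice moved the others by over 1.5 times too: *Htr1a* ran from 0.068 (without KO mouse 4) to 0.24 (KO mouse 1), *Htr1b* from 0.060 (KO mouse 4) to 0.26 (WT mouse 3), *Htr2c* from -0.36 (KO mouse 2) to -0.14 (KO mouse 4) and *Htr7* from 0.062 (WT mouse 3) to 0.28 (KO mouse 4), with no FDR under 0.18. Same-numbered KO and WT mice deviated together with r from -0.11 to 0.17, and 2 of 5 KO mice were most like the WT mouse of their own number, so the replicate block pairs labels, not mice. In KO mice the spread between mice was larger than counting error for each of the 10 genes; in WT mice it was smaller for *Htr4* (7.83% against 15.3%).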
